A study of Homo sapiens with 36 samples.

Results

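The TSC22 domain family was followed here through its 4 genes, TSC22D1, TSC22D2, TSC22D3 (also called GILZ, the glucocorticoid-induced leucine zipper) and TSC22D4, chosen by gene symbol from the 15186 genes of the deposited count table. Each symbol had 1 row, and all 4 genes passed the filter on low counts that left 15179 genes for testing. RNA came from U2OS-GRα cells, a human osteosarcoma line made to carry a stably transfected glucocorticoid receptor α, so receptor dose in these cells is not that of an untransfected cell. The 36 libraries form 12 groups of 3. Cells received the siRNA combinations siHic5siNS, siCHD9siNS, siBRMsiNS, siCHD9siHic5, siBRMsiHic5 or, as the control, siNSsiNS, where Hic-5 is a coregulator of steroid receptors encoded by TGFB1I1, CHD9 is a chromodomain remodeler, BRM is the SWI/SNF ATPase encoded by SMARCA2, and siNS is the control siRNA. Starting 48 h after transfection, every condition was given 100 nM of dexamethasone (dex), a synthetic glucocorticoid, or ethanol vehicle (etoh) for 8 h, and the 3 replicates were made on different days.

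TSC22 proteins are leucine-zipper transcriptional regulators that pair with one another through a conserved TSC box next to a leucine zipper, and most of the genes produce long and short isoforms from alternative promoters. TSC22D3 is a direct target of the glucocorticoid receptor in many cell types, is also driven by FOXO factors, and its product binds NF-κB and AP-1 and carries part of the anti-inflammatory action of glucocorticoids. TSC22D1 was first found in mouse cells as a transcript induced by TGF-β. TSC22D2 and TSC22D4 work with the pseudokinase NRBP1 and with WNK kinases in the control of cell volume, and TSC22D4 also regulates lipid metabolism in mouse liver.

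In GENCODE annotation of GRCh38, TSC22D1 lies on the minus strand at chr13:44432143-44577147, TSC22D2 on the plus strand at chr3:150408335-150466431, TSC22D3 on the minus strand at chrX:107713221-107777342 and TSC22D4 on the minus strand at chr7:100463359-100479279. The annotation gives TSC22D3 17 transcripts with 17 different starts and TSC22D1 13 transcripts with 12 starts, against 6 transcripts each for TSC22D2 and TSC22D4. The counts add all isoforms of a gene, so long and short GILZ were not separated. TSC22D1 overlaps the antisense gene TSC22D1-AS1 and 2 further models on the opposite strand, TSC22D3 overlaps NCBP2L on the opposite strand, and TSC22D4 overlaps C7orf61 on its own strand. Whether counting used strand is not given in the sources used here, so reads in those overlaps cannot be told apart. TSC22D1-AS1 itself had 0.683 to 2.04 CPM (counts scaled by library size) over the 36 libraries, far under TSC22D1.

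RefSeq (GRCh38.p14) start-site windows of 300 bases, ending 50 bases after a start, were given for 3 of the 4 genes: 4 for TSC22D3, 5 for TSC22D1 and 1 for TSC22D4. The 4 windows printed here show promoters of TSC22D3, the member that rose with dex, and of TSC22D1 and TSC22D4, which rose with Hic-5 siRNA. All lie on the minus strand and are written 5′ to 3′, with motif matches in capitals. A transcript named with a window has its GENCODE start within 50 bases of the RefSeq start site. In the second TSC22D3 window the nearest GENCODE start is that of TSC22D3-204, not that of TSC22D3-201.
TSC22D3, start of TSC22D3-211, chrX:107717013-107717312: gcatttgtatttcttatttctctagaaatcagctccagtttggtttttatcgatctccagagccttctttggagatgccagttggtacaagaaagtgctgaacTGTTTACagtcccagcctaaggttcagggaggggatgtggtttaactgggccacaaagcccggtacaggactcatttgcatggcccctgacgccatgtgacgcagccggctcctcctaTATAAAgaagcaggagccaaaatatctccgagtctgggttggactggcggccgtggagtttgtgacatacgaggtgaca
TSC22D3, start of TSC22D3-201, chrX:107775939-107776238: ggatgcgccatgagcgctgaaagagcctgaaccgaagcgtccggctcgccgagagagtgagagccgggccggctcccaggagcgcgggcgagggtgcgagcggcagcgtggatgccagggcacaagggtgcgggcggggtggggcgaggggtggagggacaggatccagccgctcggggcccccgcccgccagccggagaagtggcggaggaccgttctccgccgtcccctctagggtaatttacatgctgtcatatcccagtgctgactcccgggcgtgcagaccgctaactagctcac
TSC22D1, start of TSC22D1-201, chr13:44436809-44437108: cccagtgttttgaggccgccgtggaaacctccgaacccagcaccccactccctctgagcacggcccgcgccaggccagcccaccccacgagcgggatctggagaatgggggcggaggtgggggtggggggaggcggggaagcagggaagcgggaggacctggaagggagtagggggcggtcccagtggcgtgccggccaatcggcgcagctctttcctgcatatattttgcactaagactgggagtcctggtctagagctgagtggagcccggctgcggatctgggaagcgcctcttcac
TSC22D4, chr7:100479165-100479464: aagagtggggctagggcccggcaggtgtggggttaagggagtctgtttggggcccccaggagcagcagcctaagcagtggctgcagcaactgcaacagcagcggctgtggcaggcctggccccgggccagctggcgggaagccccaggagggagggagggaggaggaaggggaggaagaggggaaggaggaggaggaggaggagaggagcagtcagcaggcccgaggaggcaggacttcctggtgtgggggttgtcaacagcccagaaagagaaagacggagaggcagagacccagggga
Capitals in the first window mark TGTTTAC, the reverse complement of the FOXO motif GTAAACA, starting at position -147 from the start site, and TATAAA at -29. Motifs were searched on both strands, with GTAAACA found in 3.42% and TATAAA in 11.5% of the 35116 windows of all genes. None of the 10 family windows held the palindromic glucocorticoid response element, searched as AGAACA followed after any 3 bases by TGTTC, which 0.0114% of all windows held. Its half-site AGAACA, which is contained in the palindrome and occurred in 14.8% of all windows, was found in a TSC22D1 window that is not printed, at -94. The E-box CACGTG, in 7.26% of all windows, was found in another TSC22D1 window at -42, with TATAAA at -28; a further TSC22D1 window held TATAAA at -223 and -113. The other 3 printed windows held none of these motifs, which says only that the letters are not in those 300 bases.

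Library totals ranged from 27442282 to 47148257 counts, and the lowest count of any family member in any library was 257. In vehicle libraries the targeted transcripts were lower with siHic5siNS and siBRMsiNS: TGFB1I1 averaged 7.07 ± 3.58 CPM in siHic5siNS against 28.4 ± 0.785 CPM in siNSsiNS, and SMARCA2 8.76 ± 1.18 CPM in siBRMsiNS against 30.3 ± 4.74 CPM (SD, n = 3 each). TGFB1I1 and SMARCA2 levels in the double conditions and under dex are not given here. CHD9 went against one label, averaging 123 ± 17.9 CPM in the vehicle libraries labelled siCHD9siHic5 against 68.1 ± 11.4 CPM in siHic5siNS, and 119 ± 21.3 CPM against 64.2 ± 14.8 CPM under dex. With siCHD9siNS, CHD9 averaged 60.1 ± 8.94 CPM against 88.6 ± 9.46 CPM with siNSsiNS in vehicle libraries, and 77.0 ± 16.6 CPM against 90.2 ± 8.04 CPM under dex. CHD9 averaged lowest of all groups with siBRMsiHic5 in vehicle libraries, at 45.2 CPM, in a group that did not overlap siHic5siNS. With siBRMsiHic5 under dex it averaged 55.2 CPM, in a group that overlapped siHic5siNS. The part of this lower CHD9 level in the siBRMsiHic5 results below was not tested. No statement below on the libraries labelled siCHD9siHic5 is one about loss of CHD9. Of 6 osteoblast-lineage markers, 5 were in the table, and their summed group means were 3277 to 5066 CPM. SPARC and COL1A1 were at 1187 to 3132 CPM and 1153 to 3511 CPM over all libraries, and ALPL, far lower, at 3.60 to 57.5 CPM. Of 6 markers of other cell types, EPCAM, PECAM1 and CDH5 were in the table and 3 had no row; the summed group means were 3.23 to 7.44 CPM.

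TSC22D3 was higher with dex in all 6 siRNA conditions. CPM values below use upper-quartile scaling factors. With siHic5siNS, TSC22D3 had 158, 168 and 171 CPM in dex libraries and 35.2, 40.3 and 38.9 CPM in vehicle libraries. With siCHD9siNS it had 51.9, 40.6 and 52.9 CPM in dex libraries and 18.2, 12.6 and 20.6 CPM in vehicle libraries. With siBRMsiNS the values were 77.5, 54.7 and 53.4 CPM with dex and 28.6, 14.3 and 13.8 CPM with vehicle, replicate 1 being the highest in both. The libraries labelled siCHD9siHic5 held 36.8, 24.9 and 42.6 CPM with dex and 11.2, 7.99 and 16.2 CPM with vehicle, replicate 2 being the lowest in both. With siBRMsiHic5, TSC22D3 had 50.8, 45.7 and 41.5 CPM in dex libraries and 11.6, 11.4 and 11.2 CPM in vehicle libraries. In siNSsiNS cells it had 94.5, 62.7 and 66.2 CPM with dex and 26.3, 23.5 and 22.1 CPM with vehicle. Dex and vehicle libraries did not overlap in any condition, which held for 5.62% (siBRMsiNS) to 21.9% (siCHD9siNS) of all genes. In bulk RNA, fewer cells expressing a gene and less RNA per cell cannot be told apart.

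**Figure D1:**
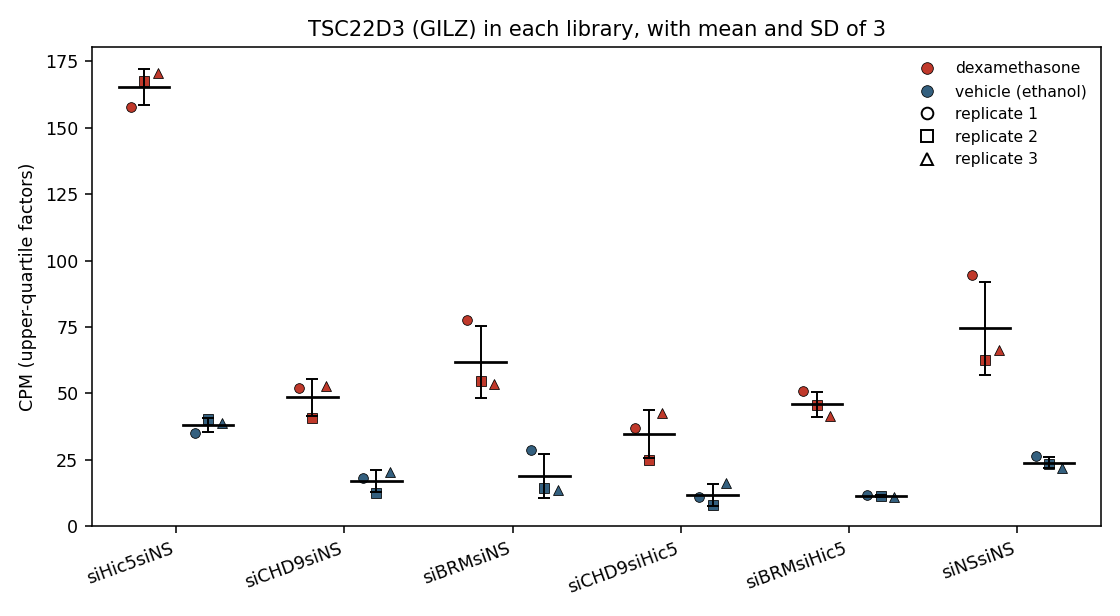
TSC22D3 in each of the 36 libraries, in CPM with upper-quartile factors, for the 6 siRNA conditions; red points are dex and blue points vehicle libraries, symbols mark the replicate number, and black bars give mean and SD of 3. The siHic5siNS dex libraries, at 158 to 171 CPM, stand above every other library, and the siHic5siNS vehicle libraries are the highest of the vehicle groups.

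The rise of TSC22D3 with dex passed the test in all 6 conditions. It was 4.33-fold with siHic5siNS (log2 change 2.12 ± 0.25, SE, adjusted p = 7.21e-06), 4.02-fold with siBRMsiHic5 (2.01 ± 0.25, adjusted p = 8.15e-05) and 3.27-fold with siBRMsiNS (1.71 ± 0.25, adjusted p = 0.000647). It was 2.94-fold in the libraries labelled siCHD9siHic5 (1.56 ± 0.25, adjusted p = 0.000966), 2.82-fold with siCHD9siNS (1.50 ± 0.25, adjusted p = 0.00147) and 3.10-fold with siNSsiNS (1.63 ± 0.25, adjusted p = 0.000731). Within replicate pairs, log2 ratios ran from 1.36 to 2.17, so all 18 pairs rose. The same fits called 0.876% of the genes tested with siHic5siNS, 0.949% with siCHD9siNS, 0.382% with siBRMsiNS, 0.455% in the libraries labelled siCHD9siHic5, 0.501% with siBRMsiHic5 and 0.343% with siNSsiNS, at an adjusted p under 0.05 in edgeR's quasi-likelihood test. By p, TSC22D3 ranked between 2 (siBRMsiHic5) and 15 (siCHD9siNS) among all genes tested. Fitted on the 6 compared libraries alone, the call was lost with siBRMsiNS (log2 change 1.71, adjusted p = 0.76) and in the libraries labelled siCHD9siHic5 (log2 change 1.56, adjusted p = 0.157).

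The other 3 members did not pass the unpaired test with dex in any condition. With siHic5siNS, TSC22D1 had 115, 110.0 and 111 CPM in dex libraries and 138, 174 and 134 CPM in vehicle libraries. These did not overlap, as was so for 10.9% of all genes. With siCHD9siNS, TSC22D1 had 60.0, 43.3 and 58.7 CPM with dex and 79.5, 54.3 and 75.5 CPM with vehicle, lower with dex in every pair while the groups overlapped. TSC22D4 with siHic5siNS had 75.0, 110.0 and 79.4 CPM with dex and 61.2, 97.3 and 54.5 CPM with vehicle, replicate 2 standing high in both groups. TSC22D2 with siBRMsiNS had 48.4, 42.6 and 39.2 CPM with dex and 62.8, 51.0 and 42.8 CPM with vehicle. Of the 18 responses of these 3 genes, edgeR without pairing, DESeq2 and limma called 0; 1 of them, TSC22D1 with siHic5siNS, had an unadjusted p under 0.05 in edgeR.

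With each dex library paired to the vehicle library of its replicate number, 4 of those 18 responses were called. TSC22D1 fell by 0.41 on the log2 scale with siHic5siNS (SE 0.08, adjusted p = 0.00463) and fell by 0.37 with siCHD9siNS (SE 0.09, adjusted p = 0.00566). TSC22D4 rose by 0.34 ± 0.09 with siHic5siNS (adjusted p = 0.0275), and TSC22D2 fell by 0.25 with siBRMsiNS (SE 0.05, adjusted p = 0.012). The paired fit called 8.93% of all genes with siHic5siNS, 24.1% with siCHD9siNS, 3.91% with siBRMsiNS, 4.74% in the libraries labelled siCHD9siHic5, 5.95% with siBRMsiHic5 and 2.5% with siNSsiNS. Each of the 4 calls rested on particular pairs. Without pair 2, TSC22D1 with siHic5siNS was at -0.28 (adjusted p = 0.0987), and without pair 1, TSC22D1 with siCHD9siNS was at -0.34 (adjusted p = 0.064). TSC22D4 with siHic5siNS was at 0.36 without pair 1 (adjusted p = 0.0831) and at 0.23 without pair 3 (adjusted p = 0.223). TSC22D2 with siBRMsiNS was at -0.19 without pair 1 (adjusted p = 0.225) and at -0.25 without pair 2 (adjusted p = 0.094). In siNSsiNS cells the paired log2 changes of TSC22D1, TSC22D2 and TSC22D4 were -0.02, -0.09 and 0.02, none of them called.

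**Figure D2:**
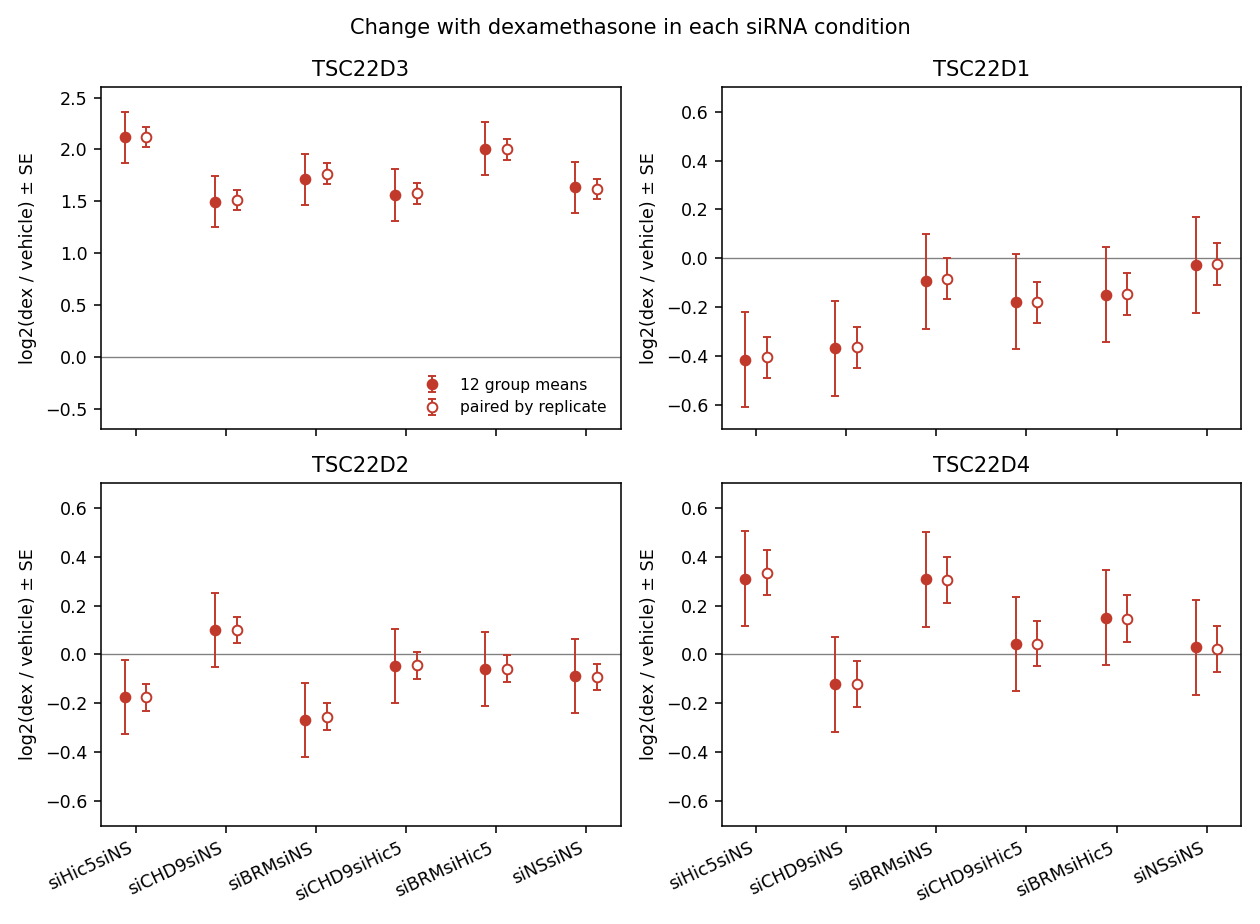
Log2 change with dex over vehicle (± SE) of each family member in each siRNA condition, from the fit on 12 group means (filled) and from the fit paired by replicate number (open). TSC22D3 lies between 1.50 and 2.12 in every condition (its panel has a wider axis), and the other members lie within 0.42 of 0.

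Whether the siRNAs changed the dex response itself was tested as a difference of responses. For TSC22D3 the difference was 0.48 ± 0.34 for siHic5siNS against siNSsiNS, -0.14 ± 0.34 for siCHD9siNS and 0.08 ± 0.34 for siBRMsiNS against siNSsiNS, -0.56 ± 0.34 for the libraries labelled siCHD9siHic5 and -0.11 ± 0.34 for siBRMsiHic5 against siHic5siNS (log2, SE). None of the 20 differences over the 4 members was called by edgeR, with or without pairing, by DESeq2 or by limma, and none had an unadjusted p under 0.05 in the unpaired edgeR test. In the paired edgeR test, each comparison had at least 1 member with an unadjusted p under 0.05. The lowest were for TSC22D3, at 0.0013 for siHic5siNS against siNSsiNS and 0.000902 for the libraries labelled siCHD9siHic5 against siHic5siNS. In those comparisons 1174 and 1132 of 15179 genes had an unadjusted p under 0.05. Over all genes, the unpaired fit called 0% for siHic5siNS, 0.00659% for siCHD9siNS and 0% for siBRMsiNS against siNSsiNS, and 0% for both double conditions against siHic5siNS. The paired fit called 0.184%, 4.03% and 0% for the 3 single siRNAs in that order, 0.145% for the libraries labelled siCHD9siHic5 and 0.184% for siBRMsiHic5. Paired, the TSC22D3 response with siHic5siNS exceeded that with siNSsiNS by 0.50 ± 0.13 (95% interval 0.22 to 0.79, adjusted p = 0.226), and that of the libraries labelled siCHD9siHic5 lay 0.54 under siHic5siNS (log2 difference -0.54 ± 0.14, 95% interval -0.84 to -0.24, adjusted p = 0.219). These intervals are for single genes and are not adjusted.

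With Hic-5 siRNA all 4 genes changed at both treatments, TSC22D1, TSC22D3 and TSC22D4 upward and TSC22D2 downward. Changes of this kind were common in these libraries: 53.1% of all genes were called in the vehicle comparison and 53.6% in the dex comparison, and the 4 of 4 members called stand against that background. In vehicle libraries TSC22D1 had 138, 174 and 134 CPM with siHic5siNS against 55.3, 42.7 and 56.3 CPM with siNSsiNS, a log2 change of 1.53 ± 0.20 (adjusted p = 4.65e-07). TSC22D4 had 61.2, 97.3 and 54.5 CPM against 38.6, 38.7 and 45.0 CPM, a log2 change of 0.80 ± 0.19 (adjusted p = 0.00113), which was 0.51 (adjusted p = 0.0305) without siHic5siNS replicate 2. TSC22D2 had 46.2, 50.4 and 41.4 CPM against 72.1, 75.9 and 56.9 CPM, a log2 change of -0.57 ± 0.15 (adjusted p = 0.00237). For each of these genes the siHic5siNS and siNSsiNS libraries did not overlap. TSC22D3 rose by 0.67 ± 0.24 in vehicle libraries (adjusted p = 0.0224), from the libraries already listed, which did not overlap either; groups of this vehicle comparison were apart for 61.2% of all genes. That vehicle call was lost without siHic5siNS replicate 2 (log2 change 0.63, adjusted p = 0.0604), without siNSsiNS replicate 2 (0.66, adjusted p = 0.0569) or without siNSsiNS replicate 3 (0.61, adjusted p = 0.071).

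Under dex, the change with siHic5siNS against siNSsiNS was 1.15 ± 0.24 for TSC22D3 (adjusted p = 0.00025), a 2.22-fold rise. TSC22D1 had 115, 110.0 and 111 CPM against 55.8, 45.0 and 50.6 CPM, a log2 change of 1.15 ± 0.20 (adjusted p = 2.21e-05). TSC22D4 had 75.0, 110.0 and 79.4 CPM against 39.1, 35.9 and 49.9 CPM, a log2 change of 1.08 ± 0.20 (adjusted p = 4.1e-05). TSC22D2 had 41.2, 44.2 and 36.7 CPM against 64.9, 75.8 and 52.3 CPM, a log2 change of -0.66 ± 0.15 (adjusted p = 0.000621). Here too no member's groups overlapped, as was so for 62.5% of all genes. EPCAM, an epithelial marker, also rose in the vehicle comparison (log2 change 0.95 ± 0.24, adjusted p = 0.00151), where the summed level of the 3 other-cell markers was 7.30 CPM with siHic5siNS against 4.46 CPM with siNSsiNS, and its part in the result was not tested.

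**Figure D3:**
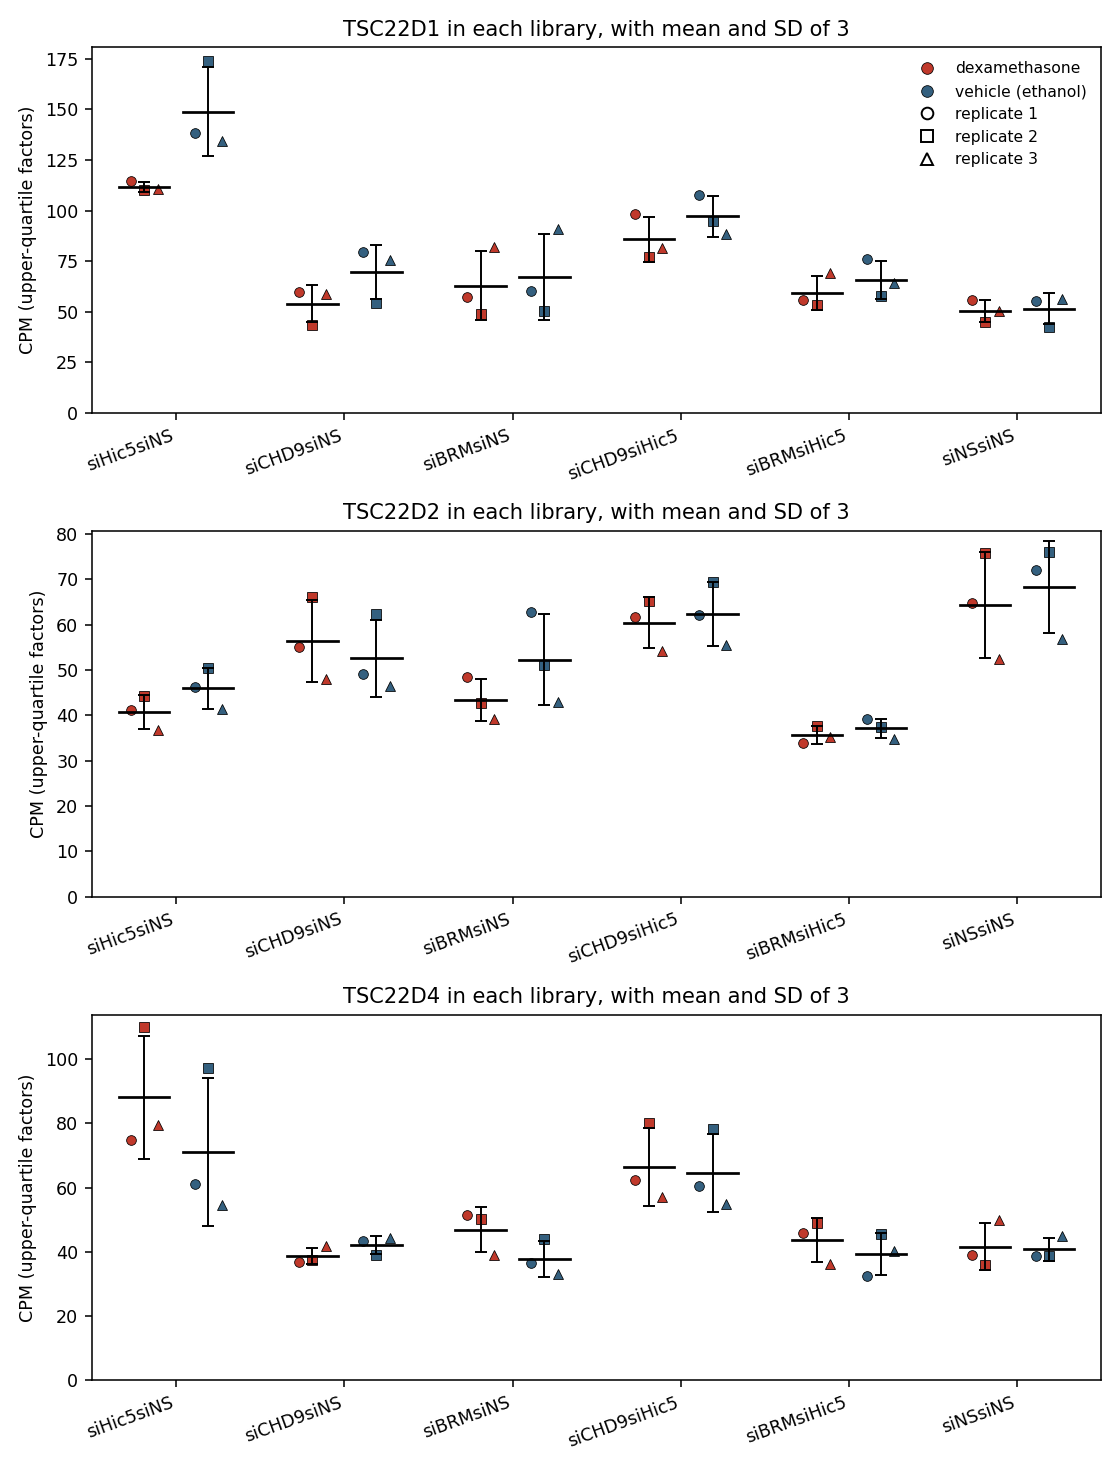
TSC22D1, TSC22D2 and TSC22D4 in each of the 36 libraries, in CPM with upper-quartile factors; red points are dex and blue points vehicle libraries, symbols mark the replicate number, and black bars give mean and SD of 3. TSC22D1 and TSC22D4 are highest with siHic5siNS and next highest in the libraries labelled siCHD9siHic5, whereas TSC22D2 is lowest with siBRMsiHic5.

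The 2 remodeler siRNAs given without Hic-5 siRNA gave 1 called member in 4 comparisons without a block; their effects were not tested against that of Hic-5 siRNA. With siCHD9siNS against siNSsiNS, log2 changes in vehicle libraries were 0.44 ± 0.20 for TSC22D1, -0.38 ± 0.15 for TSC22D2, -0.48 ± 0.24 for TSC22D3 and 0.05 ± 0.19 for TSC22D4, and edgeR called 0 of 4 members where it called 32.3% of all genes. Of these, 2 had an unadjusted p under 0.05, and DESeq2 and limma called 0. In dex libraries the changes were 0.10 ± 0.20, -0.19 ± 0.15, -0.62 ± 0.24 and -0.10 ± 0.19 for TSC22D1 to TSC22D4, again 0 of 4 called by edgeR, DESeq2 and limma (18.7% of all genes called by edgeR), with 1 at an unadjusted p under 0.05. TSC22D3 was lower in every siCHD9siNS library than in every siNSsiNS library of the same treatment; groups were apart for 49.7% of all genes in vehicle and 42.4% in dex libraries. With the replicate number as a block, TSC22D1 rose by 0.44 ± 0.17 (adjusted p = 0.0393) and TSC22D2 fell by 0.38 (SE 0.10, adjusted p = 0.00398) in vehicle libraries, where the block fit called 38.1% of all genes. In dex libraries TSC22D3 fell by 0.61 (SE 0.21, adjusted p = 0.0342), where it called 24.4%; fitted on the compared libraries alone, the adjusted p was 0.03. With siBRMsiNS against siNSsiNS, TSC22D2 fell under dex (48.4, 42.6 and 39.2 CPM against 64.9, 75.8 and 52.3 CPM, log2 change -0.57 ± 0.15, adjusted p = 0.018). It was the 1 member of 4 called, with 11.8% of all genes called. That call was lost without siBRMsiNS dex replicate 3 (-0.50, adjusted p = 0.0976), siNSsiNS dex replicate 1 (-0.56, adjusted p = 0.0857) or siNSsiNS dex replicate 2 (-0.43, adjusted p = 0.142), and on the compared libraries alone (-0.57, adjusted p = 0.172). In vehicle libraries edgeR called 0 of 4 members and 6.45% of all genes, 1 member had an unadjusted p under 0.05, and DESeq2 and limma called 0. TSC22D3 there was at -0.35 ± 0.24 (adjusted p = 0.38), and at -0.77 (adjusted p = 0.0319) without siBRMsiNS etoh replicate 1, the library in which it was highest.

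TSC22D3 was far lower in both double conditions than with Hic-5 siRNA and siNS. In the libraries labelled siCHD9siHic5 against siHic5siNS, TSC22D3 fell by 1.69 on the log2 scale in vehicle libraries (SE 0.25, adjusted p = 3.35e-06) and fell by 2.25 in dex libraries (SE 0.25, adjusted p = 3.63e-08). With siBRMsiHic5 against siHic5siNS it fell by 1.74 (SE 0.25, adjusted p = 2.52e-06) in vehicle and fell by 1.85 (SE 0.25, adjusted p = 1.06e-06) in dex libraries. All libraries of both double conditions were under all siHic5siNS libraries of the same treatment. Groups were apart for 56.5% of all genes in vehicle and 57.2% in dex libraries for those labelled siCHD9siHic5, and for 56.9% and 55.1% with siBRMsiHic5. Called members numbered 3 of 4 in vehicle and 2 of 4 in dex libraries for those labelled siCHD9siHic5, and 3 of 4 in both for siBRMsiHic5. The background was 47.7% of all genes called in vehicle and 47.8% in dex libraries for the libraries labelled siCHD9siHic5, and 49.4% and 45.6% for siBRMsiHic5. TSC22D1 had 76.1, 57.6 and 64.1 CPM with siBRMsiHic5 against 138, 174 and 134 CPM with siHic5siNS in vehicle libraries, a log2 change of -1.18 ± 0.20 (adjusted p = 1.91e-05), and changed by -0.91 ± 0.20 in dex libraries (adjusted p = 0.000436). TSC22D4 had 32.5, 45.5 and 40.2 CPM with siBRMsiHic5 against 61.2, 97.3 and 54.5 CPM in vehicle libraries, a log2 change of -0.85 ± 0.19 (adjusted p = 0.000708; -0.55, adjusted p = 0.0203, without siHic5siNS etoh replicate 2), and changed by -1.01 ± 0.19 in dex libraries (adjusted p = 0.000131). TSC22D2 was at -0.31 ± 0.15 in vehicle (adjusted p = 0.09) and -0.19 ± 0.15 in dex libraries (adjusted p = 0.307).

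The libraries labelled siCHD9siHic5 differed from siHic5siNS in another way, with TSC22D2 higher. TSC22D2 had 62.1, 69.5 and 55.5 CPM in vehicle libraries against 46.2, 50.4 and 41.4 CPM with siHic5siNS (log2 change 0.44 ± 0.15, adjusted p = 0.0177), and rose by 0.57 ± 0.15 in dex libraries (adjusted p = 0.00281). TSC22D1 had 108, 95.1 and 88.4 CPM in vehicle libraries against 138, 174 and 134 CPM (log2 change -0.62 ± 0.19, adjusted p = 0.0103). In dex libraries TSC22D1 was at -0.38 ± 0.19 (adjusted p = 0.109) and TSC22D4 at -0.41 ± 0.19 (adjusted p = 0.0838). With the replicate number as a block TSC22D4 was called there, at -0.40 ± 0.17 (adjusted p = 0.0491), with 52.5% of all genes called. TSC22D4 was at -0.14 ± 0.19 in vehicle libraries (adjusted p = 0.58). The vehicle call of TSC22D1 was lost without siHic5siNS etoh replicate 2 (-0.49, adjusted p = 0.0659). That of TSC22D2 was lost without siCHD9siHic5 etoh replicate 2 (0.35, adjusted p = 0.0867) or without siHic5siNS etoh replicate 3 (0.37, adjusted p = 0.0818). The 3 other-cell markers in the table summed to 3.23 CPM in the vehicle libraries labelled siCHD9siHic5 against 7.30 CPM with siHic5siNS, all 3 of them called lower, and their part in the result was not tested.

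**Figure D4:**
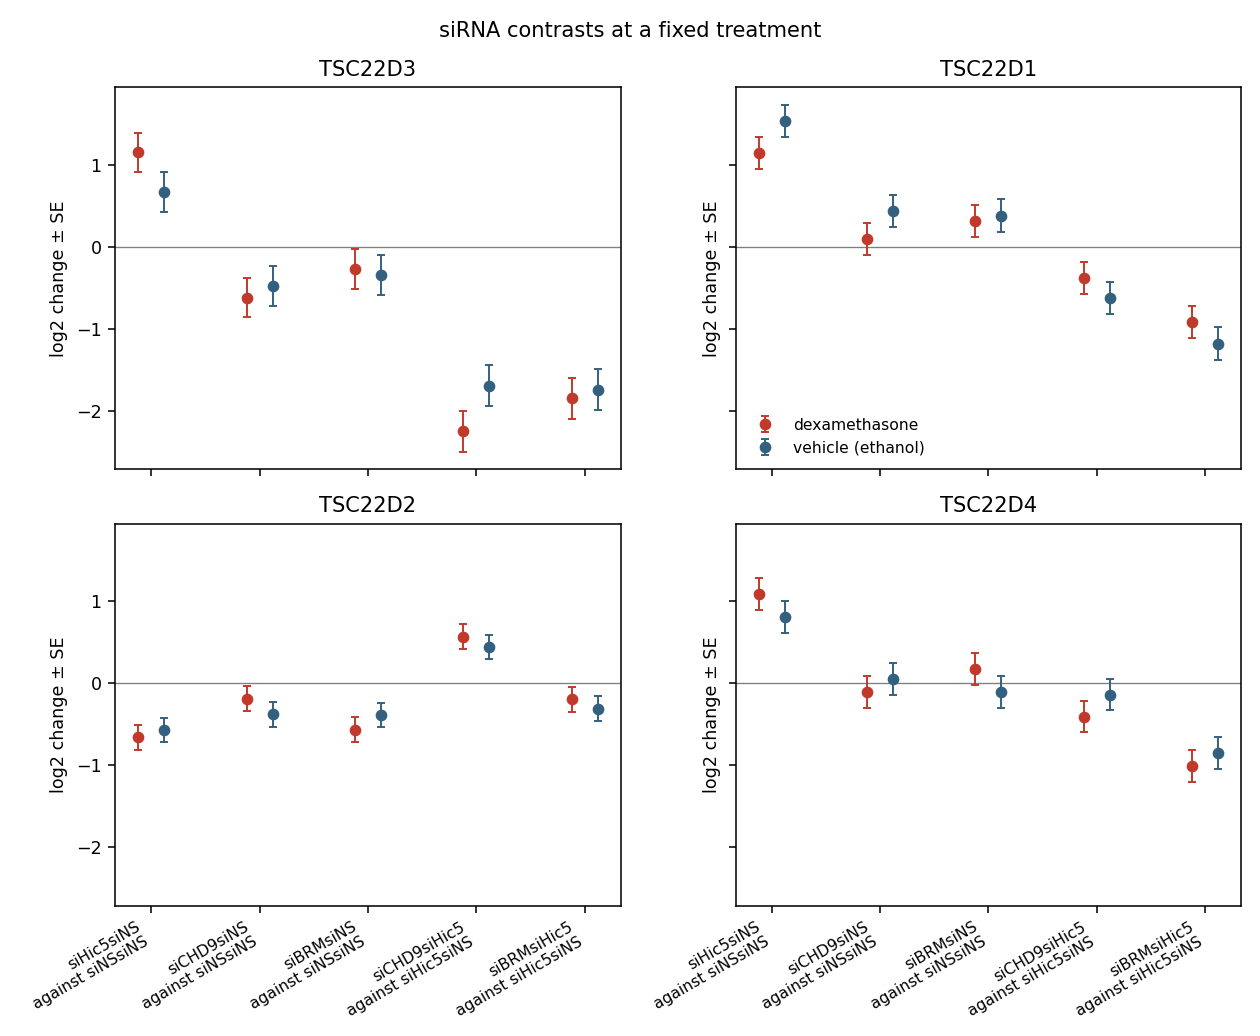
Log2 change (± SE) of each family member in 5 siRNA contrasts, in dex libraries (red) and vehicle libraries (blue). TSC22D3 lies at 0.67 and 1.15 with siHic5siNS against siNSsiNS and between -2.25 and -1.69 in the double conditions against siHic5siNS.

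Comparisons added after the data had been seen placed the double conditions against siNSsiNS and against the single remodeler siRNAs. TSC22D3 in the double conditions lay under siNSsiNS as well. It fell by 1.02 in vehicle (SE 0.25, adjusted p = 0.0011) and by 1.10 in dex libraries (SE 0.24, adjusted p = 0.000452) in those labelled siCHD9siHic5, and with siBRMsiHic5 fell by 1.07 in vehicle (SE 0.25, adjusted p = 0.000922) and by 0.70 in dex libraries (SE 0.24, adjusted p = 0.0202). The last call was lost without siBRMsiHic5 dex replicate 3 (-0.63, adjusted p = 0.0734) or without siNSsiNS dex replicate 1 (-0.49, adjusted p = 0.143). TSC22D1 and TSC22D4 stayed above siNSsiNS in the libraries labelled siCHD9siHic5, by 0.92 ± 0.20 and 0.66 ± 0.19 in vehicle libraries (adjusted p = 0.0003 and 0.00548) and by 0.77 ± 0.20 and 0.67 ± 0.19 in dex libraries (adjusted p = 0.0018 and 0.00484). Without siCHD9siHic5 etoh replicate 2, TSC22D4 was at 0.50 in vehicle libraries (adjusted p = 0.0508). With siBRMsiHic5 these 2 genes were at 0.36 ± 0.20 and -0.05 ± 0.19 in vehicle libraries and at 0.24 ± 0.20 and 0.07 ± 0.19 in dex libraries, not called. TSC22D2 was under siNSsiNS with siBRMsiHic5, having 39.1, 37.3 and 34.9 CPM against 72.1, 75.9 and 56.9 CPM in vehicle libraries (log2 change -0.88 ± 0.15, adjusted p = 3.77e-05) and a log2 change of -0.85 ± 0.15 in dex libraries (adjusted p = 6.99e-05). In the libraries labelled siCHD9siHic5 it was at -0.13 ± 0.15 in vehicle and -0.09 ± 0.15 in dex libraries, not called. Background shares against siNSsiNS were 52.6% of all genes in vehicle and 51.5% in dex libraries for those labelled siCHD9siHic5, and 48.9% and 45.5% for siBRMsiHic5.

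Set against the single remodeler siRNAs, the double conditions compare Hic-5 siRNA with siNS beside each partner. With siCHD9 as the partner, TSC22D4 rose by 0.61 ± 0.19 in vehicle (adjusted p = 0.0142, 36.8% of all genes called) and by 0.78 ± 0.19 in dex libraries (adjusted p = 0.00365, 28.7% called), and TSC22D1 rose by 0.67 ± 0.20 in dex libraries (adjusted p = 0.0111) and was at 0.48 ± 0.19 in vehicle libraries (adjusted p = 0.0549), where DESeq2 called it (0.54, adjusted p = 0.02) and limma did not. TSC22D3 was at -0.54 ± 0.25 in vehicle (adjusted p = 0.0874; -0.84, adjusted p = 0.0161, without siCHD9siHic5 etoh replicate 3 and -0.72, adjusted p = 0.0397, without siCHD9siNS etoh replicate 2) and -0.48 ± 0.24 in dex libraries (adjusted p = 0.137). With the replicate number as a block, 3 further members were called in vehicle libraries, TSC22D1 at 0.50 ± 0.17 (adjusted p = 0.0175), TSC22D2 at 0.25 ± 0.10 (adjusted p = 0.0438) and TSC22D3 at -0.54 ± 0.22 (adjusted p = 0.0468), with 42.4% of all genes called. With siBRM as the partner, TSC22D2 fell by 0.49 (SE 0.15, adjusted p = 0.02) and TSC22D3 by 0.72 (SE 0.25, adjusted p = 0.0353) in vehicle libraries, where 22.4% of all genes were called. On the compared libraries alone neither was called (TSC22D2 adjusted p = 0.122, TSC22D3 adjusted p = 0.175), and limma did not call TSC22D3 (-0.62, adjusted p = 0.0637). Without siBRMsiNS etoh replicate 1, TSC22D2 was at -0.34 (adjusted p = 0.162) and TSC22D3 at -0.30 (adjusted p = 0.421). TSC22D3 was also lost without siBRMsiHic5 etoh replicate 1 (-0.74, adjusted p = 0.076), 2 (-0.73, adjusted p = 0.0757) or 3 (-0.71, adjusted p = 0.0935), and TSC22D2 without siBRMsiHic5 etoh replicate 3 (-0.45, adjusted p = 0.078). In dex libraries edgeR, DESeq2 and limma called 0 of 4 members beside siBRM, where edgeR called 16.2% of all genes, and 0 had an unadjusted p under 0.05. The block fit called TSC22D2 there (-0.28 ± 0.10, adjusted p = 0.0419, 22.8% of all genes called). The vehicle call of TSC22D4 beside siCHD9 was lost without siCHD9siHic5 etoh replicate 2 (0.45, adjusted p = 0.103) or siCHD9siNS etoh replicate 2 (0.56, adjusted p = 0.0568), and the dex call of TSC22D1 without siCHD9siHic5 dex replicate 1 (0.56, adjusted p = 0.0637) or siCHD9siNS dex replicate 2 (0.53, adjusted p = 0.0793).

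The fitted effect of Hic-5 siRNA on TSC22D3 was positive beside siNS and negative beside either remodeler siRNA. Without a block, the negative effect was called only beside siBRM in vehicle libraries (adjusted p = 0.0353), a call lost when single libraries were left out. The difference between the effect beside a remodeler siRNA and that beside siNS was tested in the same fit. Values beside siCHD9 rest on the libraries labelled siCHD9siHic5, in which CHD9 was not lower. Values beside siBRM rest on siBRMsiHic5 libraries, in which CHD9 averaged lower than with siHic5siNS. The difference for TSC22D3 was -1.21 ± 0.35 beside siCHD9 (adjusted p = 0.0134) and -1.39 ± 0.35 beside siBRM (adjusted p = 0.00533) in vehicle libraries, and -1.63 ± 0.34 (adjusted p = 0.0016) and -1.58 ± 0.34 (adjusted p = 0.00202) in dex libraries. TSC22D1 gave -1.06 ± 0.28 beside siCHD9 (adjusted p = 0.00707) and -1.56 ± 0.28 beside siBRM (adjusted p = 0.000262) in vehicle libraries. In dex libraries TSC22D1 gave -1.23 ± 0.28 beside siBRM (adjusted p = 0.00281) and -0.48 ± 0.28 beside siCHD9 (adjusted p = 0.242). TSC22D2 differed beside siCHD9, by 0.82 ± 0.21 in vehicle (adjusted p = 0.00702) and 0.76 ± 0.21 in dex libraries (adjusted p = 0.0141), and TSC22D4 beside siBRM in dex libraries, by -1.18 ± 0.27 (adjusted p = 0.00356). Beside siBRM in vehicle libraries TSC22D4 gave -0.74 ± 0.27 (adjusted p = 0.0523). The dex difference of TSC22D2 was at 0.62 (adjusted p = 0.0583) without siNSsiNS dex replicate 2. Over all genes, such a difference was called for 21.3% beside siCHD9 and 21% beside siBRM in vehicle libraries, and for 17.1% and 18.7% in dex libraries.

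**Figure D5:**
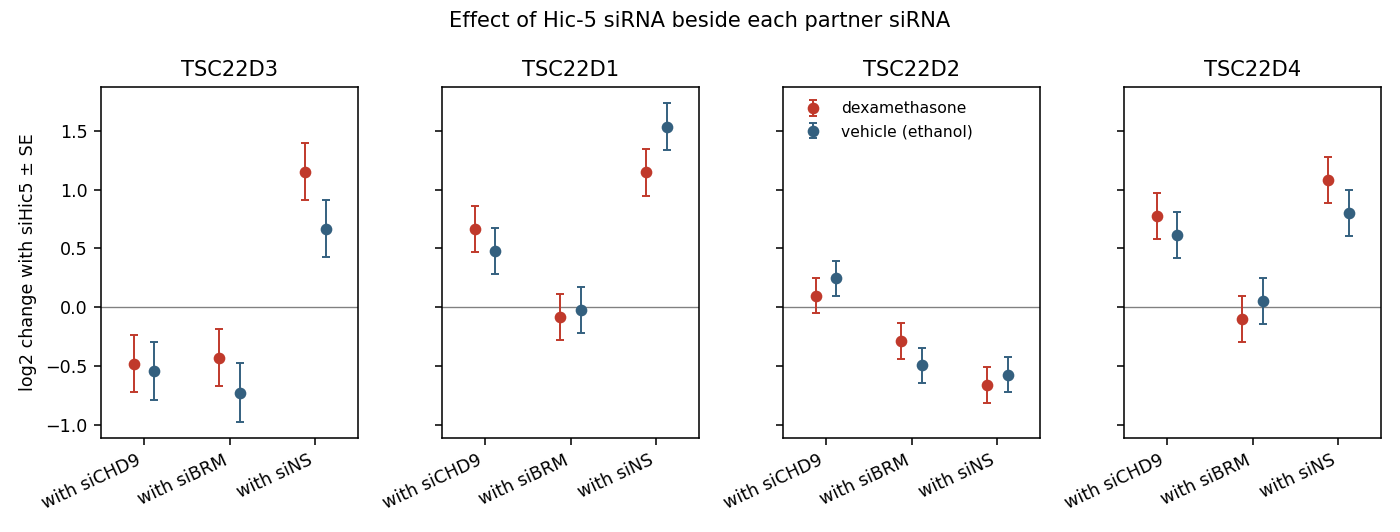
Log2 change (± SE) of each family member with Hic-5 siRNA, given beside siCHD9, siBRM or siNS, in dex libraries (red) and vehicle libraries (blue). For TSC22D3 the 2 points beside siNS are above 0 and the 4 points beside the remodeler siRNAs are below 0; for TSC22D4 the points beside siCHD9 and siNS are above 0.

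Ordered by mean CPM over the 12 groups, TSC22D3 ran from siHic5siNS dex (165 ± 6.73 CPM), which overlapped no other group, through siNSsiNS dex (74.5 ± 17.4 CPM), siBRMsiNS dex (61.8 ± 13.6 CPM), siCHD9siNS dex (48.5 ± 6.81 CPM) and siBRMsiHic5 dex (46.0 ± 4.65 CPM) to siHic5siNS vehicle (38.1 ± 2.67 CPM). The dex libraries labelled siCHD9siHic5 (34.8 ± 8.99 CPM) came next, under siHic5siNS vehicle on average though overlapping it. Below lay the vehicle groups of siNSsiNS (24.0 ± 2.15 CPM), siBRMsiNS (18.9 ± 8.38 CPM), siCHD9siNS (17.2 ± 4.07 CPM), the libraries labelled siCHD9siHic5 (11.8 ± 4.13 CPM) and siBRMsiHic5 (11.4 ± 0.231 CPM). Every neighbour in that order overlapped the next except siHic5siNS dex, siBRMsiNS dex and siBRMsiHic5 dex. TSC22D1 was highest in siHic5siNS vehicle (149 ± 21.9 CPM), then siHic5siNS dex (112 ± 2.56 CPM) and the vehicle libraries labelled siCHD9siHic5 (97.1 ± 9.96 CPM), the first 2 of which overlapped no lower group; from there each group overlapped its neighbour down to siNSsiNS dex (50.5 ± 5.37 CPM). TSC22D4 ran from 88.1 ± 19.1 CPM in siHic5siNS dex to 37.9 ± 5.62 CPM in siBRMsiNS vehicle, with a gap only under the libraries labelled siCHD9siHic5. TSC22D2 ran from 68.3 ± 10.1 CPM in siNSsiNS vehicle to 35.6 ± 1.95 CPM in siBRMsiHic5 dex with no gap between neighbours.

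Per kilobase of annotated exon, which allows the genes to be compared, TSC22D4 was the highest member in all 6 vehicle groups. With siHic5siNS under dex, TSC22D3 was at 34.7, TSC22D4 at 23.7, TSC22D1 at 13.0 and TSC22D2 at 3.49 CPM per kb, whereas with vehicle TSC22D3 was at 8.00, TSC22D4 at 19.1, TSC22D1 at 17.3 and TSC22D2 at 3.94 CPM per kb. With siNSsiNS under dex, TSC22D3 was at 15.6, TSC22D4 at 11.2, TSC22D1 at 5.88 and TSC22D2 at 5.51 CPM per kb, whereas with vehicle TSC22D3 was at 5.03, TSC22D4 at 11.0, TSC22D1 at 5.99 and TSC22D2 at 5.85 CPM per kb. Under dex TSC22D3 had the highest mean with siHic5siNS, siBRMsiNS (13.0 against 12.6 CPM per kb for TSC22D4) and siNSsiNS. It was under TSC22D4 with siCHD9siNS (10.2 against 10.4 CPM per kb) and siBRMsiHic5 (9.64 against 11.8 CPM per kb), and in the dex libraries labelled siCHD9siHic5 its 7.30 CPM per kb was under TSC22D4 at 17.9 CPM per kb and under TSC22D1. These orders were not tested. TSC22D3 made up 46.4 ± 2.92% of the summed per-length level of the family with siHic5siNS under dex against 16.8 ± 2.57% with vehicle, 18.2 ± 5.32% in the dex libraries labelled siCHD9siHic5 against 6.95 ± 3.04% in their vehicle libraries, and 40.6 ± 5.4% with siNSsiNS under dex against 18.1 ± 1.49% with vehicle (SD, n = 3 each). Exon lengths add all annotated isoforms, so the level of a gene used mainly in its short form is understated.

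Across the 36 libraries TSC22D1 and TSC22D4 had a Pearson correlation of 0.674 (0.748 within the 18 dex and 0.717 within the 18 vehicle libraries), and the other pairs of members lay between -0.25 and 0.32 over all libraries. TSC22D1 and TSC22D3 had 0.084 over all libraries but 0.443 within dex and 0.340 within vehicle libraries, and TSC22D3 and TSC22D4 had 0.446 within dex and 0.208 within vehicle libraries. These values are descriptions, since libraries of one condition share their siRNA, and the dex and vehicle libraries of one condition and replicate number deviate together. The gene most like TSC22D3 was ZBTB16, a zinc-finger repressor also induced by glucocorticoids, at r = 0.951 (0.906 within dex, 0.877 within vehicle libraries). It was followed by ZNF189 (0.894), KLF15 (0.873), CPNE7 (0.869) and RASSF4 (0.866). For ZNF189 and KLF15 the correlation within vehicle libraries was 0.42 and 0.41. TSC22D1 was most like KCNK10 (0.930), SLC27A1 (0.918), MMP14 (0.906), CHI3L1 (0.902) and WSB1 (0.901). TSC22D2 was most like RBM15 (0.943), ZBTB39 (0.928), FRS2 (0.927), NXN (0.906) and ARHGAP42 (0.906), and TSC22D4 most like MAP3K10 (0.902), AP2A1 (0.902), ABTB1 (0.895), ULK1 (0.895) and MARK4 (0.890).

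Genes around the family were read from lists of its regulators and partners. Of 10 direct glucocorticoid-induced genes, the unpaired fit called 3 upward with dex under siHic5siNS and 4 in each of the other 5 conditions. None was called downward, and FKBP5, TIPARP and ZBTB16 were called in all 6. In counts of list genes here and below, rose and fell mean called up and called down by that fit. A list gene that was not called may still have changed. Of all genes, 0.343% (siNSsiNS) to 0.929% (siCHD9siNS) were called upward. FKBP5, a receptor co-chaperone, rose by 1.31 ± 0.27 with siHic5siNS and 1.48 ± 0.28 with siNSsiNS (log2), and ZBTB16 by 2.11 ± 0.30 and 1.61 ± 0.30. The list's median log2 change lay between 0.52 and 1.19, against -0.03 to 0.01 for all genes. No gene of the other 4 lists (5 regulators of TSC22D3, 8 partners and targets of GILZ, 14 genes of the TSC22-NRBP-WNK pathway and 9 of TGF-β signalling) was called with dex without pairing. The receptor gene NR3C1 averaged 122 ± 19.8 CPM in siHic5siNS vehicle libraries against 82.7 ± 11.4 CPM in siNSsiNS (log2 change 0.56 ± 0.15, adjusted p = 0.00261). Gene counts cannot tell reads of the transfected receptor from reads of the cells' own NR3C1.

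In vehicle libraries of siHic5siNS against siNSsiNS, 8 of the 14 NRBP-WNK genes rose and 0 fell, with a median log2 change of 0.32 against -0.01 for all genes. They included the WNK-activated kinases STK39 (1.22 ± 0.20, adjusted p = 1.26e-05) and OXSR1 (0.60 ± 0.11, adjusted p = 5.34e-05), the potassium-chloride cotransporter SLC12A4 (0.58 ± 0.17, adjusted p = 0.00414) and NRBP1 (0.34 ± 0.10, adjusted p = 0.00431). Of GILZ partners and targets 5 of 8 rose and 1 fell. FOXO3 rose (0.32 ± 0.10) and the ubiquitin ligase MDM2 fell by 0.62 (SE 0.22). Of the regulators, NR3C1, FOXO3 and FOXO4 were called up and 0 of 5 were called down. FOXO1 averaged lower, at 24.8 ± 2.96 CPM with siHic5siNS against 38.9 ± 13.4 CPM with siNSsiNS, in groups that overlapped. TGF-β genes moved both ways, 3 up and 3 down of 9, and while TGFB1 rose by 0.82 ± 0.14, TGFB2 fell by 2.27 on the log2 scale (SE 0.43). With siBRMsiHic5 against siHic5siNS in vehicle libraries, all 5 regulators fell, among them FOXO3 by 0.49 (SE 0.10) and FOXO4 by 0.73 (SE 0.18), as did 8 of the 14 NRBP-WNK genes, including WNK1 by 0.73 (SE 0.11) and NRBP2 by 1.36 (SE 0.23), while NRBP1 rose by 0.35 ± 0.10. In the libraries labelled siCHD9siHic5 against siHic5siNS, 3 of 5 regulators and 3 of 14 NRBP-WNK genes fell and 1 NRBP-WNK gene rose. The lists were chosen with results of these data known, and shares near the 53.1%, 49.4% and 47.7% of all genes called in those 3 comparisons are no result about a list. By direction, of 15179 genes 3940 were called up and 4126 down in the first comparison. The second had 3826 up and 3679 down, and the third 3331 up and 3903 down. No list was tested against these numbers.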

How the data were processed

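Gene counts of 36 RNA-seq libraries were used as the authors deposited them. The deposited values are whole-number counts per gene with a different total in each library. The deposited table's name speaks of upper-quartile-normalized CPM, but it was read as unnormalized counts from these values. An earlier account of the same table also gives counts as its unit. The submitters' processing notes name TopHat2 2.1.1, edgeR and the build GRCh38; counting tool, annotation and strand use: not given in the sources used here. All 36 columns were matched to samples by name, and 0 columns belonged to no sample.

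Counts were tested in R 4.3.3 with edgeR 4.0.16 (quasi-likelihood test, upper-quartile factors, 12 group means, 24 residual degrees of freedom), for 15179 genes with a scaled CPM above 1 in at least 3 libraries; 7 genes were left out. A gene was called at a Benjamini-Hochberg adjusted p under 0.05 over all genes tested. Standard errors are the log2 change divided by the square root of F, and 95% intervals use the residual degrees of freedom. Comparisons of the double conditions with siNSsiNS and the single remodeler siRNAs, and of the Hic-5 effect between partners, were added after seeing the data. CPM use the same factors. The test was tried on simulated counts. The named genes are the 4 members in every comparison, up to 4 called genes of a list with the smallest p, and the 5 genes with the highest correlation of log2(CPM + 0.5) with each member. The members and lists were chosen with earlier results of these data known.

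The labels give replicate numbers and separate days. Deviations from group means of same-numbered dex and vehicle libraries of 1 condition correlated at 0.477 to 0.932 over 18 pairs, and 36 of 36 libraries were closest to their own number, so the dex tests were also fitted with a term for each pair (12 residual degrees of freedom). Across siRNA conditions every correlation passed 0.1 in 10 of 18 contrasts, all those of siCHD9siNS and the libraries labelled siCHD9siHic5 and those of siBRMsiHic5 against siBRMsiNS. For these the block value is given where the block changed a call. Alternatives were TMM or no factors, DESeq2 1.42.0, limma 3.58.1 on log2(CPM + 0.5), other filters, the compared groups alone and leaving out each library. No 2 libraries of the same group agreed within sampling noise (36 pairs). Libraries of different groups were not compared in this way.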

Additional observations from a re-analysis of the deposited data

Results flagged for a closer look

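The effect of Hic-5 siRNA differed between partner siRNAs, by a test of the difference itself in edgeR, for 10 of 16 values (4 genes, 2 partners, 2 treatments). In vehicle libraries, beside siCHD9 against beside siNS, the difference was -1.06 for TSC22D1, 0.82 for TSC22D2 and -1.21 for TSC22D3 on the log2 scale. Beside siBRM it was -1.56 for TSC22D1 and -1.39 for TSC22D3. In dex libraries it was 0.76 for TSC22D2 and -1.63 for TSC22D3 beside siCHD9. Beside siBRM in dex libraries it was -1.23 for TSC22D1, -1.58 for TSC22D3 and -1.18 for TSC22D4. The comparison was chosen after the data had been seen, and between 17.1% and 21.3% of all genes were called in it. In the libraries labelled siCHD9siHic5, CHD9 was not lower than in siHic5siNS. With siBRMsiHic5, CHD9 averaged lower than with siHic5siNS at both treatments, and its part in the result was not tested.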

How the results depend on the processing

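No value changed direction among the results called, and of 972 main values recomputed, 930 kept direction and call; TMM or no factors moved the median of all genes by at most 0.0764 (log2). Values are log2 changes, each with its adjusted p in parentheses or after it. Fitted on the compared libraries alone, where fewer samples give the spread, TSC22D3 was at 1.71 for dex with siBRMsiNS (adjusted p = 0.76), 1.56 for dex in the libraries labelled siCHD9siHic5 (0.157) and -0.62 for siCHD9siNS against siNSsiNS under dex (0.03, called), and at -0.73 for siBRMsiHic5 against siBRMsiNS with vehicle (0.175), where limma gave -0.62 (0.0637; the cause was not tested). TSC22D2 was at -0.57 for siBRMsiNS against siNSsiNS under dex (0.172) and -0.49 for siBRMsiHic5 against siBRMsiNS with vehicle (0.122). With the replicate block, TSC22D3 was called at -0.61 for siCHD9siNS against siNSsiNS under dex (0.0342) and at -0.54 for the libraries labelled siCHD9siHic5 against siCHD9siNS with vehicle (0.0468). In contrasts whose numbers do not pair, the replicate block called TSC22D2 at -0.39 for siBRMsiNS against siNSsiNS with vehicle (0.0119) and at -0.30 for siBRMsiHic5 against siHic5siNS with vehicle (0.0114), and TSC22D4 at -0.71 for the Hic-5 effect beside siBRM with vehicle (0.031). Beside these and the blocked values given with the results, the block changed no call. Leaving out each library in turn, with the pooled spread kept, gave the ranges that follow. TSC22D3 ran from 0.61 to 0.74 for siHic5siNS and from -0.77 to -0.16 for siBRMsiNS against siNSsiNS with vehicle, and from -0.81 to -0.49 for siBRMsiHic5 against siNSsiNS under dex. Beside single remodeler siRNAs with vehicle it ran from -0.84 to -0.33 in the libraries labelled siCHD9siHic5 and from -0.91 to -0.30 with siBRMsiHic5. Its difference of dex responses against siNSsiNS ran from -0.31 to 0.071 with siCHD9siNS and from -0.12 to 0.50 with siBRMsiNS. For the libraries labelled siCHD9siHic5, against siHic5siNS with vehicle, TSC22D1 ran from -0.70 to -0.49 and TSC22D2 from 0.35 to 0.52; against siCHD9siNS, TSC22D4 ran from 0.45 to 0.72 with vehicle and TSC22D1 from 0.53 to 0.75 under dex; against siNSsiNS with vehicle, TSC22D4 ran from 0.50 to 0.77. TSC22D2 ran from -0.70 to -0.43 for siBRMsiNS against siNSsiNS under dex, from -0.62 to -0.34 for siBRMsiHic5 against siBRMsiNS with vehicle, and from 0.62 to 0.89 for the Hic-5 effect beside siCHD9 under dex. TSC22D4 ran from 0.51 to 0.96 for siHic5siNS against siNSsiNS with vehicle, and the TSC22D3 dex difference of the libraries labelled siCHD9siHic5 against siHic5siNS from -0.77 to -0.26. Calls were gained with 1 library left out for TSC22D1 (without siCHD9siNS etoh replicate 2, 0.59, 0.0315) and TSC22D2 (without siCHD9siNS etoh replicate 2, -0.52, 0.0181, or siNSsiNS etoh replicate 3, -0.49, 0.0215) in siCHD9siNS against siNSsiNS with vehicle, and for TSC22D2 in siBRMsiNS against siNSsiNS with vehicle (without siBRMsiNS etoh replicate 1, -0.54, 0.0267, or siNSsiNS etoh replicate 3, -0.50, 0.0477). For the libraries labelled siCHD9siHic5, so was TSC22D4 against siHic5siNS under dex (without siCHD9siHic5 dex replicate 2, -0.56, 0.0357) and TSC22D1 against siCHD9siNS with vehicle (without siCHD9siNS etoh replicate 1, 0.58, 0.0478). TSC22D4 for the Hic-5 effect beside siBRM with vehicle was called without siBRMsiHic5 replicate 2, siBRMsiNS replicate 3, siHic5siNS replicate 1 or siHic5siNS replicate 3 (-0.90 to -0.83). Other settings gained calls for TSC22D1 in the libraries labelled siCHD9siHic5, against siCHD9siNS with vehicle (TMM 0.52, 0.034; no factors 0.50, 0.0426; compared libraries alone 0.48, 0.0407) and against siHic5siNS under dex (compared libraries alone -0.38, 0.026). With no factors, calls were also gained for TSC22D2 for siCHD9siNS against siNSsiNS with vehicle (-0.43, 0.0305) and TSC22D4 for the Hic-5 effect beside siBRM with vehicle (-0.75, 0.0444; stricter filter -0.74, 0.0483). With 3 libraries a group, depth was not the limit for any member, the lowest count being 257.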
